A study of Homo sapiens with 4 samples.

Results

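The nuclear genes of respiratory complexes II, III and IV were examined in RNA from cells with and without a knockout of TXNDC9, a thioredoxin domain protein of the cytosol. The group was set by gene name, in a choice made with earlier results of these data known, and holds 39 of the 57979 genes with values in the deposited table, each on 1 line. These are 23 subunits, 14 assembly factors, COX7A2L, which joins complexes III and IV in supercomplexes, and CYCS, which is cytochrome c. Polyadenylated RNA was sequenced in 4 libraries of cells labelled HepG2, a line from a human liver tumour grown in DMEM with serum. The wild-type group had 2 libraries (replicates 1 and 2), and the TXNDC9 knockout group had 2 libraries of cells in which TXNDC9 was targeted with CRISPR-Cas9; the labels name no drug or time course in either group. The guides were carried by a lentiviral vector that also encodes Cas9. The sources used here do not say whether the knockout cells were a clone or a mixed population, or whether the 2 libraries of a group came from separate cultures, so p-values measure only the spread between these libraries. Values are FPKM as the authors deposited them, by name fragments per length of transcript and per mapped fragments of the library. How the libraries were normalized is not given in the sources used here. No counts were given, so the depth of each library is unknown.

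The respiratory chain passes electrons from food to oxygen across the inner mitochondrial membrane. Complex II, succinate dehydrogenase, takes them from succinate and is also an enzyme of the citric acid cycle; all of its subunits are encoded in the nucleus. Complex III passes them from ubiquinol to cytochrome c, and complex IV, cytochrome c oxidase, passes them to oxygen. Complexes III and IV each combine nuclear subunits with a part encoded in mitochondrial DNA, which is MT-CYB alone in complex III and the catalytic core in complex IV. Dedicated assembly factors insert the heme, copper and iron-sulphur centres of the complexes. Liver cells are rich in mitochondria, and many nuclear respiratory genes carry promoter motifs of the factors NRF1, GABP (of the ETS family) and YY1.

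The labelled cell type was checked against its markers before any comparison. Of 9 hepatocyte markers (ALB, AFP, APOA1, APOB, TTR, SERPINA1, FGB, HNF4A and TF), 0 passed 1 FPKM in any library, and their summed level was 0.0479 to 0.733 FPKM, so the label HepG2 is used below only as a label. Of 9 markers of fibroblasts, leukocytes and endothelium, 4 or 5 passed 1 FPKM in each library, with sums of 43.8 to 56.2 FPKM. CD3E was at 0 in every library, and PTPRC stayed at or under 0.192 FPKM. Of the endothelial markers, PECAM1 stayed at or under 0.261 FPKM and VWF at or under 0.0205 FPKM. The endothelial marker CDH5 averaged 0.909 FPKM in wild type and 3.70 FPKM in the knockout, and the fibroblast marker PDGFRB 0.905 and 2.81 FPKM. Both entered the test, which takes genes with a mean above 1 FPKM, only through the knockout libraries. Their log2 fold changes of 1.92 and 1.55 are therefore a description, and no call is drawn from them. COL3A1 (−0.70) was lower without the fold limit, and COL1A1 (−0.49) and CD68 (0.58) did not pass. The part of these differences in the results below was not tested. TXNDC9 itself stood at 35.1 and 37.3 FPKM in wild type against 21.9 and 27.6 FPKM in the knockout. Its log2 fold change was −0.55 (SE 0.14, adjusted p = 0.0145 from limma, Benjamini-Hochberg), which did not pass 0.01, and it was 0.12 when each library was rescaled to TPM, that is, to the same sum. The FPKM values of a library summed to 805816 and 971102 in wild type and to 535973 and 568279 in the knockout. On that scale the all-gene median of the log2 fold changes was 0.59 in place of −0.09.

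RefSeq promoter windows (GRCh38.p14), from 250 bases before to 50 bases after a start site, were matched to 33 of the 39 genes and to 9688 of the 13246 tested genes. SDHC, UQCRB, CYC1, COX6C, COX11 and SCO2 were not matched. Each window was searched on both strands for 4 motifs: GCATGCGC (NRF1 core), CCGGAAG (ETS), AAGATGGC (YY1) and CACGTG (E-box, the site of MYC and related factors). The NRF1 core stood in 8 of the 33 windows (24.2%) against 6.03% of all windows, and the ETS motif in 16 (48.5%) against 21.1%. The YY1 motif stood in 3 (9.09% against 6.1%) and the E-box in 2 (6.06% against 10.6%). NRF1 core and ETS motifs stood before genes of both directions, taken by the sign of the log2 fold change alone. An NRF1 core or ETS motif was in 12 of the 26 windows of genes with lower values in the knockout and in 6 of the 7 with higher values. The share of all 9688 windows with either motif was not counted. Members with an ETS motif had a median log2 fold change of −1.06 against −0.89 for those without. The classes differed, with −1.16 against −0.91 for subunits and −0.46 against −0.95 for assembly factors. Over all tested genes these medians were −0.17 and −0.04, and no such difference was tested. The bases before the start are shown for COX17, SDHAF2 and COX20, which were lower in the knockout, and for COX18 and COX15, whose values were higher. Capitals mark the motif matches.
COX17: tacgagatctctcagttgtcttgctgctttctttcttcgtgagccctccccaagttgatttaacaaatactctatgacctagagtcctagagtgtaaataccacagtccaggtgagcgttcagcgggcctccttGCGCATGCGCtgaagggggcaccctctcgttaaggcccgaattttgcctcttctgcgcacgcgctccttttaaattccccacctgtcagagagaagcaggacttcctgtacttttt
SDHAF2: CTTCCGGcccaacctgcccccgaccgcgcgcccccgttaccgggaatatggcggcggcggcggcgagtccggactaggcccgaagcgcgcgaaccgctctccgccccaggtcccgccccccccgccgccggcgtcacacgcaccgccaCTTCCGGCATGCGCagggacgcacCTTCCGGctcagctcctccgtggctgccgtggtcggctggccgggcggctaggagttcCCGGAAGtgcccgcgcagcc
COX20: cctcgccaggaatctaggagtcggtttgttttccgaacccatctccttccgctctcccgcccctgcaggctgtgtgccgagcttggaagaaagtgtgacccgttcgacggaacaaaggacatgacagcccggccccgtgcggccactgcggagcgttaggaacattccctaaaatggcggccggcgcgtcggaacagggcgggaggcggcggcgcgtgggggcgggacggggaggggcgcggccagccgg
COX18: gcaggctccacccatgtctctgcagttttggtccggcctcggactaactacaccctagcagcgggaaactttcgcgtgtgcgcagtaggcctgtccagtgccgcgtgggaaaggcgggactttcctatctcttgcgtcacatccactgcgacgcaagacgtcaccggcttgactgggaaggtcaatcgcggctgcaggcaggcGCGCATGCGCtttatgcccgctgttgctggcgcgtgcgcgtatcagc
COX15: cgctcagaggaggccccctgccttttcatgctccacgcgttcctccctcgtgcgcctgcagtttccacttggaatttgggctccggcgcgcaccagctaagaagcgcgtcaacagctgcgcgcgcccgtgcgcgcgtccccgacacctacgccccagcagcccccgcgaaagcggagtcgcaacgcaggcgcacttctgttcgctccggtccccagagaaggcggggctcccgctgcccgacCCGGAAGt
These windows are chr3:119677407-119677656 on the minus strand, chr11:61429874-61430123 on the plus strand, chr1:244835408-244835657 on the plus strand, chr4:73069717-73069966 on the minus strand and chr10:99732128-99732377 on the minus strand. COX17 and COX18 both carried a pair of NRF1 cores that overlap on opposite strands. The pair stood 116 to 107 bases before the start in COX17 and 47 to 38 bases before it in COX18. COX17 was lower in the knockout, while the higher values of COX18 did not pass 0.01 (adjusted p = 0.0469 from limma). A further ETS match of COX17 is not within the bases shown. SDHAF2 carried 4 ETS motifs and 1 NRF1 core, of which an ETS motif and the NRF1 core share 1 base. The COX20 window held none of the 4 motifs.

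All 39 genes were expressed, with mean levels above 1 FPKM, and all entered the test. A gene was called when its adjusted p from limma was under 0.01 and its fold change at least 2. Of the 39 genes, 16 were called lower in the knockout libraries, against 15.3% of all 13246 tested genes, and 0 were called higher, against 14.2%. Without the fold limit, 25 were lower (27.1% of all tested genes) and 1 was higher (23.7%). The knockout and wild-type libraries did not overlap for any of the 39 genes: the knockout was lower for 30 (45.9% of all tested genes) and higher for 9 (40.1%). The median log2 fold change was −0.91, which was 0.83 below the median of all tested genes.

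The count of called genes rested on which libraries entered and on the scale. The log2 fold change of UQCRC1, for example, was −1.30 without wild-type replicate 1 and −0.92 without wild-type replicate 2, on either side of the 2-fold limit. That of COX20 was −2.08 and −1.72. With no test, 14 of the 39 genes were at least 2-fold lower without knockout replicate 1 and 18 without knockout replicate 2. The share of all tested genes was not counted on that measure. Of the 39 genes, 34 were higher in wild-type replicate 2 than in replicate 1 (beside 62.6% of all tested genes). Their median log2 ratio was 0.33, against 0.09 for all tested genes. Among the knockout libraries 34 were higher in replicate 2 (beside 66.8%), with a median of 0.09 against 0.06 for all tested genes. With TPM, 1 gene was called lower (3.37% of all tested genes) and 4 were called higher (33.1%). The median of the 39 genes relative to all tested genes was then −0.82. After a correction for transcript length and GC content, 3 were called lower (7.44%) and 0 higher (6.35%), and without the fold limit 20 were lower (19.7%) and 2 higher (13.2%). In RNA from a whole culture, fewer cells of a type and less RNA per cell cannot be told apart.

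**Figure D1:**
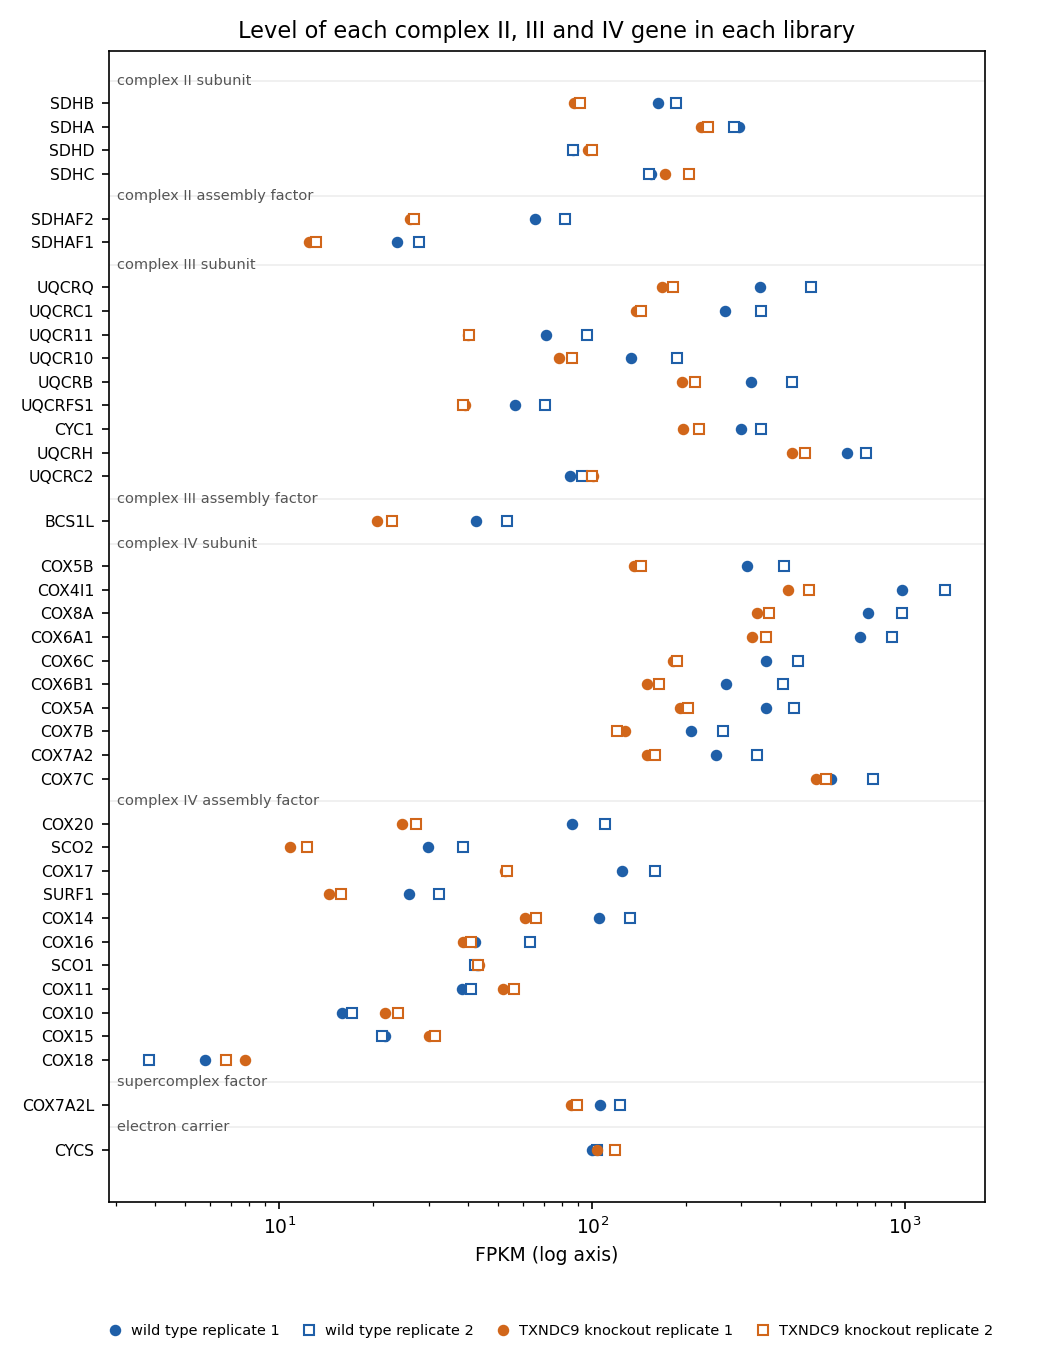
Level of each of the 39 genes in each library (FPKM, log axis), grouped by complex and role, with circles for replicate 1 and squares for replicate 2. For 30 genes both knockout libraries (orange) lie to the left of both wild-type libraries (blue), and for 9 they lie to the right.

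In complex II both assembly factors and 0 of 4 subunits were called lower (beside 15.3% of all tested genes). This split rests on the 2-fold limit, since SDHAF1 was 2.02-fold and the subunit SDHB 1.94-fold lower, and the difference between them was not tested. SDHAF1 was not called with a pseudocount of 1, and SDHB was called with centring and without wild-type replicate 1. SDHAF2, which helps to attach the flavin cofactor to SDHA, was at 65.6 and 81.7 FPKM in wild type against 26.2 and 26.9 FPKM in the knockout. It was 2.75-fold lower (log2 fold change −1.46, SE 0.13, adjusted p = 0.000627 from limma). SDHAF1, which helps to insert the iron-sulphur clusters of SDHB, was at 23.8 and 28.0 FPKM in wild type against 12.4 and 13.1 FPKM in the knockout, with a log2 fold change of −1.01 (SE 0.12, adjusted p = 0.00109 from limma). The libraries did not overlap for either factor. After the length and GC correction SDHAF2 still had a log2 fold change of −0.97 (adjusted p = 0.00126 from limma), while that of SDHAF1 was −0.01.

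The subunits of complex II did not share a direction. SDHB, the iron-sulphur subunit, was at 163 and 186 FPKM in wild type against 87.8 and 91.5 FPKM in the knockout, a log2 fold change of −0.96 (SE 0.12, adjusted p = 0.00127 from limma) that missed the fold limit. SDHC and SDHD, the membrane anchors that help to form the ubiquinone site, had higher values in the knockout. SDHC was at 154 and 152 FPKM in wild type against 171 and 203 FPKM in the knockout (log2 fold change 0.28, SE 0.13, adjusted p = 0.102 from limma). SDHD was at 87.1 and 87.1 FPKM against 97.2 and 99.6 FPKM (log2 fold change 0.18, SE 0.10, adjusted p = 0.170 from limma). Neither passed the test on the deposited scale, and with the length and GC correction SDHC did, at 0.65 (adjusted p = 0.00572 from limma). SDHA, the flavoprotein that oxidises succinate, was at 295 and 284 FPKM in wild type against 223 and 234 FPKM in the knockout (adjusted p = 0.0452 from limma). SDHA had the highest level of the 4 in every library, and the lowest was SDHD in wild type and SDHB in the knockout.

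In complex III, 3 of 9 subunits and the assembly factor BCS1L were called lower (beside 15.3% of all tested genes), and 7 of the 9 subunits were lower without the fold limit (beside 27.1%). UQCRQ, a small subunit that binds ubiquinone, was the subunit with the largest difference, at 344 and 500.0 FPKM in wild type against 168 and 181 FPKM in the knockout (log2 fold change −1.25, SE 0.20, adjusted p = 0.00286 from limma). UQCRC1, a core protein on the matrix side, was at 266 and 347 FPKM in wild type against 138 and 144 FPKM in the knockout, and the small subunit UQCR11 at 71.2 and 96.4 FPKM against 40.0 and 40.4 FPKM. BCS1L, which moves the Rieske iron-sulphur protein into the complex, was at 42.4 and 53.3 FPKM in wild type against 20.5 and 22.9 FPKM in the knockout (log2 fold change −1.13, SE 0.14, adjusted p = 0.00131 from limma). For all of these genes the knockout libraries lay below the wild-type libraries.

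The other core protein of complex III went the other way. UQCRC2 was at 84.8 and 92.9 FPKM in wild type against 101 and 99.7 FPKM in the knockout (log2 fold change 0.18, SE 0.11, adjusted p = 0.195 from limma), so its difference did not pass the test. The Rieske protein UQCRFS1 (−0.70), the small subunits UQCRB (−0.88) and UQCR10 (−0.94), and CYC1 (−0.64), which is cytochrome c1, passed without the fold limit on the log2 scale. The hinge protein UQCRH, at 653 and 749 FPKM in wild type against 436 and 478 FPKM in the knockout, did not (adjusted p = 0.0138 from limma). UQCRH had the highest and UQCRFS1 the lowest level of the 9 subunits in every library, 10.6 to 12.4 times apart.

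None of the 4 complex III genes called lower was still called after the length and GC correction. UQCRC1 went from −1.11 to −0.33 (adjusted p = 0.0282 from limma), UQCR11 from −1.04 to −0.43 (adjusted p = 0.0167) and BCS1L from −1.13 to −0.41 (adjusted p = 0.0126), while UQCRQ, at −0.93, was lower without the fold limit (adjusted p = 0.00421). UQCRB was the sole one called then: its log2 fold change went from −0.88 to −1.90, and the canonical transcript of UQCRB used for it has 8459 nt, while those of the other complex III subunits have 537 to 3086 nt. That of CYC1 went from −0.64 to 0.33, and its transcript has 1191 nt and 61.5% GC.

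The nuclear subunits of complex IV shared 1 direction. All 10 were lower in each knockout library than in each wild-type library (beside 45.9% of all tested genes), and 7 were called lower (beside 15.3%): COX4I1, COX5A, COX5B, COX6A1, COX6B1, COX6C and COX8A, with log2 fold changes from −1.36 to −1.02. These subunits surround the catalytic core encoded in mitochondrial DNA and take part in its assembly and regulation. COX5B, the zinc-binding subunit on the matrix side, was at 313 and 412 FPKM in wild type against 136 and 143 FPKM in the knockout (log2 fold change −1.36, SE 0.16, adjusted p = 0.00114 from limma). COX4I1, a regulatory subunit that binds adenine nucleotides, was at 980.0 and 1341 FPKM in wild type against 423 and 492 FPKM in the knockout (log2 fold change −1.33, SE 0.21, adjusted p = 0.00252 from limma). COX8A, the small membrane subunit, was at 764 and 976 FPKM in wild type against 338 and 367 FPKM in the knockout.

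COX7A2 (−0.91) and COX7B (−0.91) passed the test without the fold limit on the log2 scale. COX7C, a small membrane subunit, was the exception, at 579 and 788 FPKM in wild type against 519 and 561 FPKM in the knockout (log2 fold change −0.32, SE 0.19, adjusted p = 0.183 from limma). Its highest knockout library was close to its lowest wild-type library. COX4I1 was the highest of the 10 subunits in both wild-type libraries and COX7C in both knockout libraries, while COX7B was the lowest in all 4. After the length and GC correction 0 of the 10 were called at 2-fold (beside 7.44% lower), 8 were lower without the fold limit (beside 19.7%), and their median log2 fold change was −0.68 against −1.11 before it. NDUFA4, a further subunit of complex IV despite its name, had a log2 fold change of −0.52 (adjusted p = 0.0722 from limma) and was named after its values were seen. Isoforms of these subunits that are known from muscle, lung or testis were at or near 0: COX4I2, COX6A2, COX7B2 and COX8C were listed at 0 in all 4 libraries, COX6B2 reached 0.0754 FPKM and COX7A1 0.0445 FPKM.

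**Figure D2:**
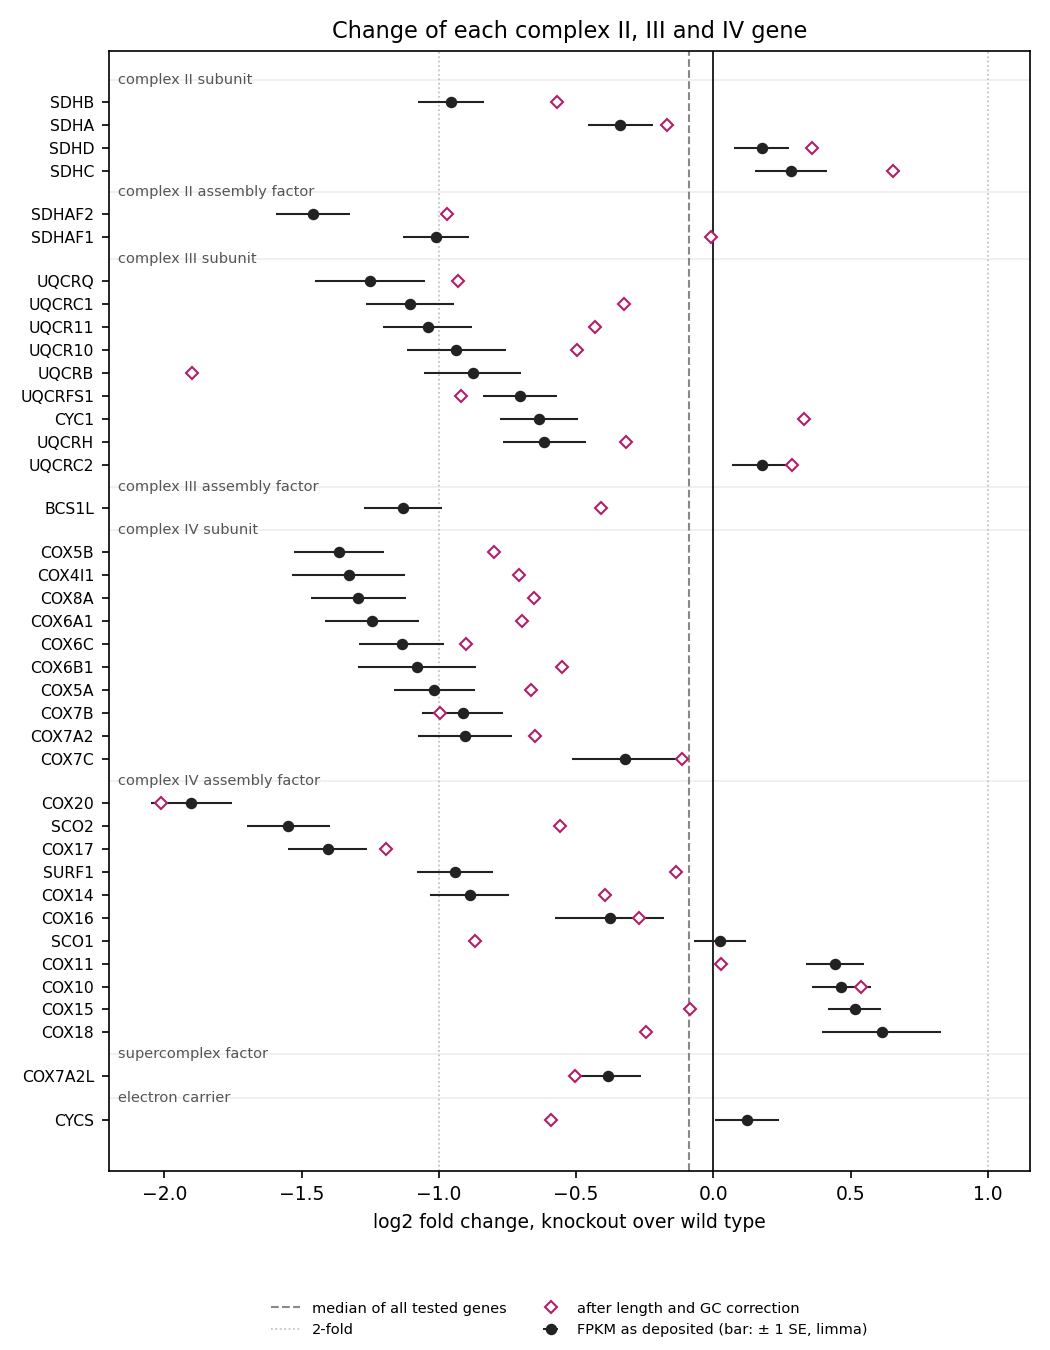
Log2 fold change of each gene, knockout over wild type, on the deposited FPKM (black, bars of 1 SE from limma) and after the length and GC correction (diamonds), with dotted lines at 2-fold and a dashed line at the all-gene median of −0.09. The 10 complex IV subunits lie left of 0 on both scales, while the complex IV assembly factors run from −1.90 to 0.61 on the deposited FPKM.

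Among the assembly factors of complex IV, log2 fold changes ran from −1.90 to 0.61. Of 11, 3 were called lower (27.3%, beside 15.3% of all tested genes): COX20, SCO2 and COX17. COX20, a chaperone of the copper-binding core subunit MT-CO2, was at 85.9 and 110.0 FPKM in wild type against 24.7 and 27.3 FPKM in the knockout. It was 3.74-fold lower (log2 fold change −1.90, SE 0.15, adjusted p = 0.000538 from limma), the largest difference among the 39 genes, and it was the sole one of them called lower with TPM, at −1.22 there. Its log2 fold change was −2.01 after the length and GC correction. COX20 lies on chromosome 1 of hg38 from 244835616 to 244845057 and overlaps the gene HNRNPU.

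Copper delivery to complex IV runs from COX17 to SCO1, SCO2 and COX11. COX17 was at 124 and 159 FPKM in wild type against 52.5 and 53.5 FPKM in the knockout, a log2 fold change of −1.41 (SE 0.14, adjusted p = 0.000768 from limma) that was −1.19 after the correction. SCO2 was at 29.9 and 38.5 FPKM in wild type against 10.9 and 12.3 FPKM in the knockout (log2 fold change −1.55, SE 0.15, adjusted p = 0.000713 from limma). Its paralog SCO1 was at 43.0 and 42.3 FPKM in wild type against 43.4 and 43.2 FPKM in the knockout (log2 fold change 0.02, SE 0.10, adjusted p = 0.840 from limma). The 4 values of SCO1 lay between 42.3 and 43.4 FPKM, while the libraries did not overlap for SCO2. With the correction the order of these paralogs turned, SCO1 at −0.87 (adjusted p = 0.00128 from limma) and SCO2 at −0.56 (adjusted p = 0.00737), and the canonical transcripts used have 9577 nt and 984 nt. COX11, the copper donor to MT-CO1, was at 38.3 and 41.0 FPKM in wild type against 51.8 and 56.3 FPKM in the knockout (log2 fold change 0.44, SE 0.11, adjusted p = 0.0120 from limma).

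COX10 and COX15, the enzymes that make heme A for complex IV, had higher values in the knockout. COX15 was at 21.8 and 21.3 FPKM in wild type against 30.1 and 31.6 FPKM in the knockout (log2 fold change 0.52, SE 0.10, adjusted p = 0.00497 from limma), and was the sole gene of the 39 higher without the fold limit. COX10 was at 15.9 and 17.1 FPKM in wild type against 21.7 and 23.9 FPKM in the knockout (log2 fold change 0.47, SE 0.11, adjusted p = 0.0107 from limma). After the length and GC correction COX15 stood at −0.08 and COX10 at 0.54 (adjusted p = 0.00466 from limma). SURF1, thought to take part in heme insertion, was at 26.0 and 32.4 FPKM in wild type against 14.4 and 15.7 FPKM in the knockout (log2 fold change −0.94, lower without the fold limit). After the correction it was at −0.14 (adjusted p = 0.211 from limma).

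COX18, which helps to move MT-CO2 across the inner membrane, was the factor with the lowest level, at 5.79 and 3.82 FPKM in wild type against 7.78 and 6.75 FPKM in the knockout (log2 fold change 0.61, SE 0.22, adjusted p = 0.0469 from limma). COX14, which binds newly made MT-CO1, was at 105 and 132 FPKM in wild type against 61.2 and 66.0 FPKM in the knockout and was lower without the fold limit (−0.89 on the log2 scale). COX16, which takes part in building the MT-CO2 module, was at 42.3 and 63.4 FPKM in wild type against 38.6 and 41.1 FPKM in the knockout (adjusted p = 0.141 from limma). The highest factor was COX17 in both wild-type libraries and COX14 in both knockout libraries. The 4 genes called higher with TPM, where 33.1% of all tested genes were, were COX10, COX11, COX15 and COX18, all assembly factors of complex IV. After the length and GC correction COX11 was at 0.03 (adjusted p = 0.778 from limma) and COX18 at −0.25 (adjusted p = 0.380 from limma). COX15 was then at −0.08, and COX10 at 0.54.

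COX7A2L and CYCS, which belong to neither class, did not pass the test. COX7A2L was at 106 and 123 FPKM in wild type against 85.5 and 89.3 FPKM in the knockout (log2 fold change −0.38, SE 0.12, adjusted p = 0.0332 from limma). CYCS, which carries electrons from complex III to complex IV and takes part in apoptosis when released, was at 100.2 and 103 FPKM in wild type against 104 and 118 FPKM in the knockout (log2 fold change 0.12, SE 0.12, adjusted p = 0.390 from limma). With the length and GC correction CYCS was at −0.59 (adjusted p = 0.00335 from limma). The annotation holds 42 pseudogenes named after CYCS, the most of any of the 39 genes, and how reads were divided among such copies is not stated. In all, 22 of the 39 genes have a pseudogene named after them, and 17 overlap another protein-coding gene. The sources used here do not say whether reads were counted by strand, so reads of overlapping genes may not have been separated.

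The median level of the 23 subunits was 295 and 347 FPKM in wild type against 168 and 181 FPKM in the knockout, and that of the 14 assembly factors was 40.3 and 41.7 FPKM against 25.4 and 27.1 FPKM. The gap between these medians on the log2 scale was 2.87 and 3.05 in wild type and 2.72 and 2.74 in the knockout. These medians are a description with no test: with 2 libraries against 2, an exact permutation test cannot give a p below 0.33. The median log2 fold change was −0.94 for the subunits and −0.92 for the assembly factors, but these pooled values hide differences between the complexes. The medians of subunits and factors were −0.08 and −1.24 in complex II, and −1.11 and −0.38 in complex IV. In complex III they were −0.88 and −1.13, with 1 factor. Of the 23 subunits 10 and of the 14 factors 6 were called lower (43.5% and 42.9%, beside 15.3% of all tested genes), and 3 subunits and 5 factors had higher values in both knockout libraries (beside 40.1%). No difference between the classes was tested. After the length and GC correction the pooled medians were −0.57 and −0.33, and 1 subunit and 2 factors were called lower (beside 7.44%). With it the medians of subunits and factors were 0.10 and −0.49 in complex II, and −0.68 and −0.27 in complex IV.

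Ratios between genes of the same library do not depend on how that library was scaled. The pairs were chosen after their values were seen, so the ratios are a description. In complex II, SDHB over SDHC was 1.06 and 1.22 in wild type and 0.514 and 0.450 in the knockout. In complex III, UQCRC1 over UQCRC2, which meet in the same core, was 3.14 and 3.73 in wild type and 1.37 and 1.44 in the knockout. In complex IV, COX4I1 over COX7C was 1.69 and 1.70 in wild type and 0.815 and 0.877 in the knockout.

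Among the factors, SCO2 over SCO1 was 0.696 and 0.911 in wild type and 0.250 and 0.284 in the knockout, and COX17 over COX11 was 3.25 and 3.86 in wild type and 1.01 and 0.951 in the knockout. COX20 over COX18, which both handle MT-CO2, was 14.9 and 28.8 in wild type and 3.17 and 4.04 in the knockout. CYC1 over CYCS, the donor and the carrier of the same electrons, was 2.99 and 3.35 in wild type and 1.88 and 1.87 in the knockout. None of these ratios overlapped between the groups. In each pair the transcripts differ in length or GC content, which the ratios do not remove.

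**Figure D3:**
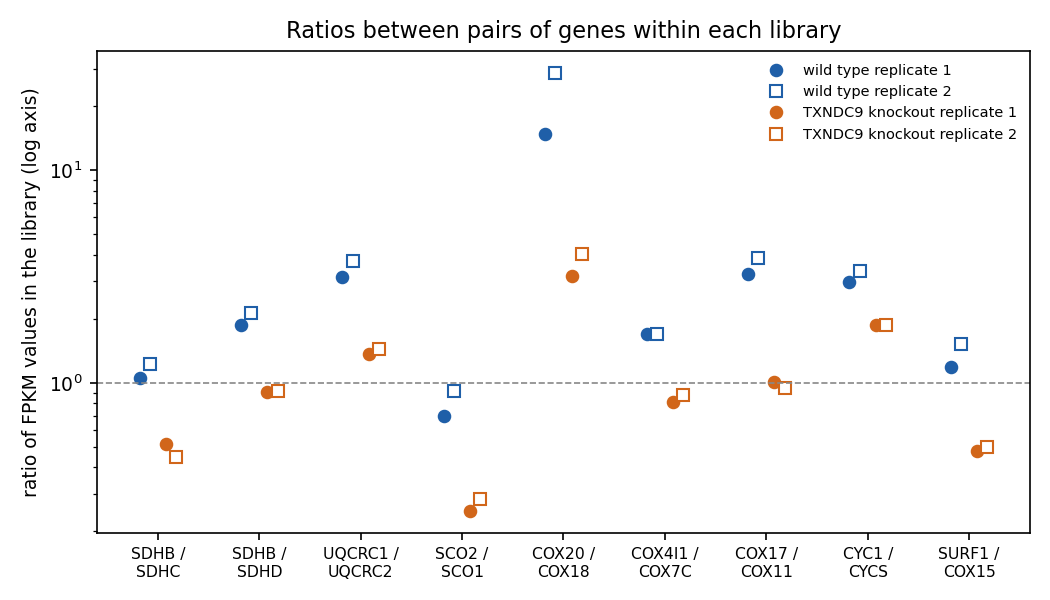
Ratio of the FPKM values of 9 pairs of genes within each library (log axis), with circles for replicate 1 and squares for replicate 2. In every pair both knockout libraries (orange) lie below both wild-type libraries (blue), and the dashed line marks equal levels.

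Transcript length moved with the difference between the groups across the whole table. Tested genes with a canonical transcript under 1000 nt had a median log2 fold change of −0.84, those of 1000 to 2000 nt −0.66, those of 2000 to 4000 nt −0.12 and those of 4000 nt or more 0.61. The share called lower fell along the same order from 34.2% to 28.8%, 10.5% and 4.15%. Most of the 39 genes are short, with 13 under 1000 nt and 14 from 1000 to 2000 nt. Of these, 8 and 7 were called lower, and their medians were −1.14 and −0.98. Of the 7 genes from 2000 to 4000 nt, 1 was called lower, namely COX20, and their median was −0.38. Of the 5 genes of 4000 nt or more (UQCRB, COX15, COX18, SCO1 and CYCS), 0 were called, and their median was 0.12. In all 4 length classes the median of the 39 genes lay below that of all tested genes. This did not hold for each role: from 2000 to 4000 nt the median was 0.44 for 3 assembly factors and −0.70 for 3 subunits. Whether RNA quality or library preparation differed between the groups was not tested.

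**Figure D4:**
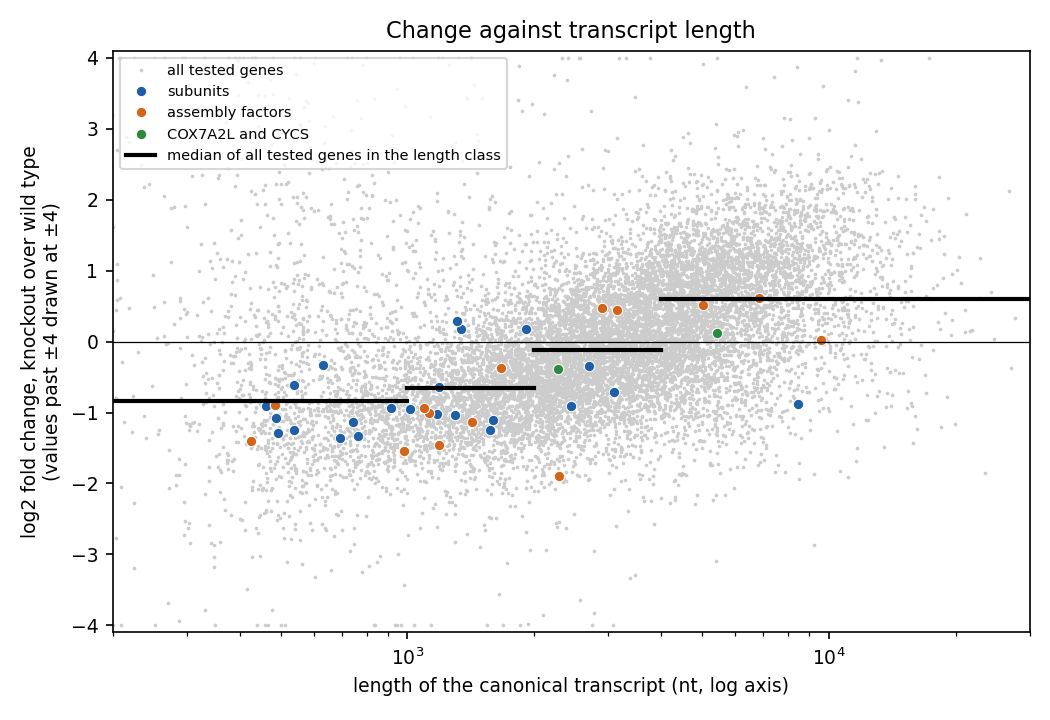
Log2 fold change against the length of the canonical transcript (nt, log axis) for all tested genes with a transcript (grey) and for the 39 genes (coloured by class). Black bars give the median of all tested genes in each length class, from −0.84 under 1000 nt to 0.61 at 4000 nt or more.

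Further nuclear genes of the 3 complexes that are outside the group gave a smaller median. Of 33 listed, 27 were tested, 7 were called lower (25.9%, beside 15.3% of all tested genes) and 1 higher, and their median was −0.63. UQCC3, an assembly factor of complex III, was at 36.5 and 54.9 FPKM in wild type against 14.0 and 12.4 FPKM in the knockout (log2 fold change −1.76, SE 0.20, adjusted p = 0.00103 from limma). PET100, an assembly factor of complex IV, was at 74.5 and 99.3 FPKM in wild type against 28.4 and 30.7 FPKM in the knockout (−1.54 on the log2 scale). After the length and GC correction UQCC3 was still called, at −1.25, and PET100 was lower without the fold limit, at −0.86. The sole one called higher was LYRM7 (1.21 on the log2 scale), which guards the Rieske protein before its insertion by BCS1L and was named after its values were seen. It was not called after the correction, at 0.27 (adjusted p = 0.143 from limma), and its transcript has 6219 nt.

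The rest of oxidative phosphorylation had medians close to that of the 39 genes. Among 37 subunits of complex I, 17 were called lower (45.9%, beside 15.3% of all tested genes) and 1 higher, with a median of −0.98. NDUFS6 was at 694 and 891 FPKM in wild type against 163 and 167 FPKM in the knockout (log2 fold change −2.25, SE 0.16, adjusted p = 0.000512 from limma), and NDUFA3 had a log2 fold change of −2.06. Among 16 nuclear subunits of ATP synthase, 6 were called lower (37.5%) and 0 higher, with a median of −0.92. ATP5F1D had a log2 fold change of −1.72 and ATP5PF of −1.67. With the length and GC correction 10 subunits of complex I (27% of those tested) and 3 of ATP synthase (18.8%) were called lower, beside 7.44% of all tested genes.

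Of 13 genes of the other enzymes of the citric acid cycle, which complex II also serves, 3 were called lower (beside 15.3% of all tested genes) and 1 higher (beside 14.2%), counts near the background, with a median of 0.13. IDH3A, the catalytic subunit of isocitrate dehydrogenase, was at 24.4 and 15.3 FPKM in wild type against 52.7 and 55.9 FPKM in the knockout (log2 fold change 1.49, SE 0.22, adjusted p = 0.00221 from limma). SUCLG1, of succinate-CoA ligase, was at 140 and 171 FPKM in wild type against 68.3 and 72.1 FPKM in the knockout (log2 fold change −1.14, SE 0.13, adjusted p = 0.00108 from limma). With the length and GC correction 0 of the 13 were called.

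Of 13 tested regulators of respiratory genes, 3 were called lower (beside 15.3% of all tested genes) and 2 higher (beside 14.2%), counts near the background, with a median of 0.05. PPARGC1A, a coactivator that drives mitochondrial biogenesis, was at 1.52 and 1.22 FPKM in wild type against 4.85 and 5.28 FPKM in the knockout (log2 fold change 1.82, SE 0.19, adjusted p = 0.000790 from limma). POLRMT, the RNA polymerase of mitochondria, was at 46.5 and 78.4 FPKM in wild type against 17.8 and 19.5 FPKM in the knockout (log2 fold change −1.69, SE 0.25, adjusted p = 0.00202 from limma). Neither was called after the length and GC correction. PPARGC1A was then at 0.996 and higher without the fold limit (adjusted p = 0.00799 from limma), and POLRMT was at −1.07 (adjusted p = 0.0133 from limma). Of the 13 regulators, 3 were called lower with the correction (23.1%, beside 7.44% of all tested genes), namely SLIRP, PPRC1 and GABPB1. On that scale 0 were called higher (beside 6.35%). Of the factors whose promoter motifs were counted, NRF1 had a log2 fold change of 0.05 (adjusted p = 0.688), GABPA of 0.76 (adjusted p = 0.00191) and YY1 of 0.98 (adjusted p = 0.000825), all from limma, and GABPA and YY1 passed without the fold limit. With the length and GC correction neither did, GABPA at −0.07 (adjusted p = 0.548 from limma) and YY1 at 0.38 (adjusted p = 0.0191 from limma). MT-CYB of complex III and MT-CO1, MT-CO2 and MT-CO3 of complex IV were listed at 0 in all 4 libraries, so the mitochondrial subunits of these complexes could not be set beside the nuclear genes.

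**Figure D5:**
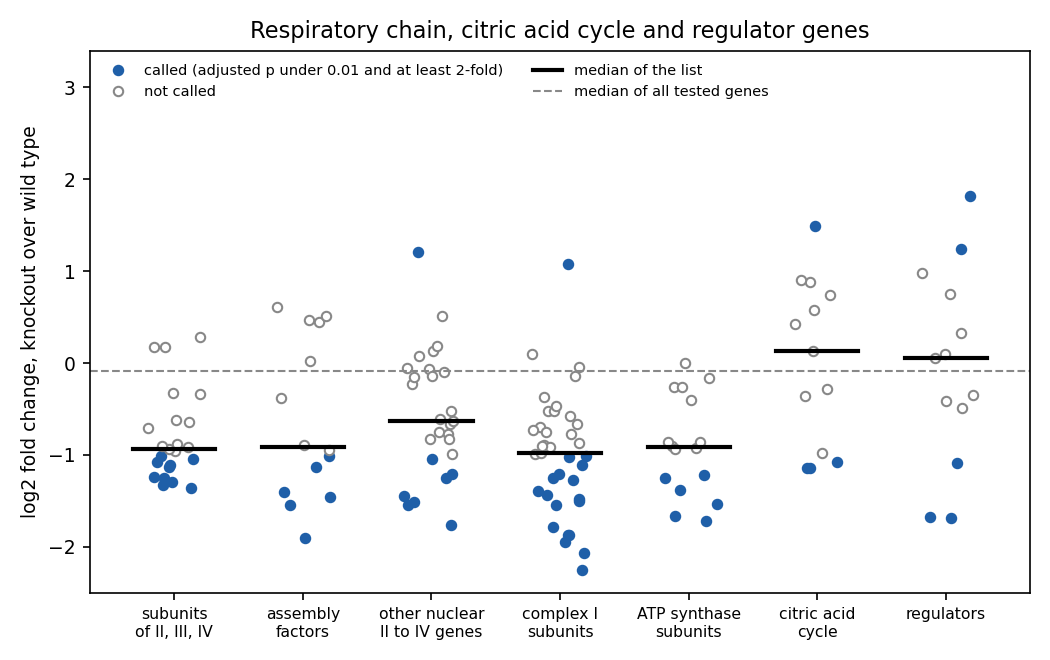
Log2 fold change of each tested gene in the 23 subunits, the 14 assembly factors and 5 further lists, with called genes filled, list medians as black bars and the all-gene median of −0.09 as a dashed line. The medians of the subunits and factors of complexes II to IV, complex I and ATP synthase lie from −0.98 to −0.92, those of the citric acid cycle and of the regulators at 0.13 and 0.05.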

How the data were processed

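The authors mapped reads of 4 libraries to hg38 with TopHat2 and an Ensembl annotation and deposited FPKM per gene and library from Cuffdiff. Tool versions, library normalization and strand are not given in the sources used here. The deposited averages, fold changes, p-values and q-values of the authors' own comparison were not used. The table has 231916 lines, 57979 with values, and each identifier occurs 4 times. They stand on other lines than their genes, and once they were assigned in order of first appearance 93.3% of the protein-coding ones carried the symbol of GENCODE release 44. That annotation gave positions, lengths and GC content (SCO2 was matched by symbol).

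Groups and replicate numbers follow the sample titles. The test was limma 3.58.1 (R 4.3.3) on log2(FPKM + 0.1) for genes whose mean FPKM exceeded 1 (trend in the prior variance, Benjamini-Hochberg adjustment over 13246 genes), a scale that understates the change of low genes. The steps were tested on simulated data. For the length and GC correction, loess (span 0.3) was run on the deviations from each gene's mean, per library, over 13132 genes. Python 3.11.15, pandas 2.3.3 and matplotlib 3.10.9 were used. Other alternatives were pseudocounts of 1 and 0.01, other filters, centring, no trend, an adjusted p under 0.05, leaving out each library, a replicate block and COX7A2L in either class.

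The members and all lists were chosen with earlier results of these data known. Full statistics are given for the largest and smallest change in each complex and role, for COX7A2L, CYCS, SCO1, SCO2 and every member with a higher value, and from other lists for at most 2 genes with the largest change. Other genes named were chosen after their values were seen. Without counts, no counting intervals could be given.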

Additional observations from a re-analysis of the deposited data

How the results depend on the processing

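When each single gene was compared with its value under each alternative, 415 results kept their direction and their side of the threshold, 93 lost the call, 20 gained one and 18 changed sign. Rescaling to TPM gave 447 genes lower and 4380 higher in the whole table, and of the members 1 lower and 4 higher, with 0 subunits and 1 assembly factor lower and medians of −0.26 and −0.24. It turned TXNDC9 to 0.12, SDHA to 0.34, UQCRH to 0.064, CYC1 to 0.044, COX7C to 0.36, COX16 to 0.30 and COX7A2L to 0.30. Centring on the median took the all-gene median to −0.23 and those of the classes to −1.08 and −1.06, and SCO1 to −0.12 and CYCS to −0.022. The length and GC correction left 977 genes lower and 834 higher, 3 members, 1 subunit and 2 assembly factors lower, medians of −0.57 and −0.33 and a class difference of −0.24 against −0.02, and turned CYC1 to 0.33, COX15 to −0.084, COX18 to −0.25, SCO1 to −0.87 and CYCS to −0.59. Without a filter on low values, where more genes are tested, 8 members and 2 subunits were lower, beside 1419 genes in the whole table. With a mean FPKM above 5, where fewer genes are tested, 1220 genes were higher. Beyond what the construction of an alternative shows, the cause was not tested.

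Leaving out a library put the whole table between 0 and 2633 lower and 0 and 2136 higher genes, the members between 0 and 23, the subunits between 0 and 15 and the assembly factors between 0 and 8 lower. The subunit median ran from −1.12 to −0.75 and that of the assembly factors from −1.08 to −0.75. A lone library was assumed to vary like the other group. Whether the replicate numbers pair the libraries could not be decided. Over genes, the offsets of same-numbered libraries from the average of their group correlated at −0.0904. With 2 libraries per group both replicate numbers must give the same value, and a correlation removes any shift common to all genes. Replicate 2 was higher than replicate 1 for 62.6% of all tested genes in wild type and for 66.8% in the knockout. A replicate block gave 2146 lower and 1960 higher genes and left 16 members lower, and with the length and GC correction it gave 981 and 838 genes and 3 members lower. The block gave TXNDC9 an adjusted p of 0.00267 from limma (0.00401 with centring, and up to 0.449 under the alternatives tried), and it took UQCRH (0.00345), COX10 (0.00564), COX11 (0.00578) and COX18 (0.00810) under 0.01 as well, all short of 2-fold. It added no call at 2-fold among the members. Depth is unknown, so what it limits cannot be given.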
